A study of Mus musculus with 3 samples.

Results

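The comparison described here sets male gonads of mouse embryos that lacked both Cyp26b1 and Stra8 against male gonads of wild-type embryos. Its members were the 2 arrays of the double knockout (Cyp26b1-/-/Stra8-/-) and the 2 arrays of wild type (Cyp26b1+/+/Stra8+/+), which are 4 of the 6 arrays of the series and 2 of its 3 genotypes. The remaining 2 arrays came from the Cyp26b1 knockout with intact Stra8 (Cyp26b1-/-/Stra8+/+). All embryos were males of the line labelled MCH at embryonic day 14.5, and 0.20 µg of total gonad RNA was labelled with Cy3 for each one-colour Agilent array. The duplicates were biological per the design text, but the labels leave unsaid whether RNA was pooled over embryos, so p-values measure only the spread between arrays. The question of the comparison is which response to loss of Cyp26b1 remains when Stra8 is absent as well.

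Retinoic acid is made from vitamin A by dehydrogenases and is destroyed by enzymes of the Cyp26 family. It binds nuclear receptors of the RAR family, which sit on DNA as partners of RXR receptors and switch on their target genes. In the fetal testis, Cyp26b1 is made by somatic cells, chiefly Sertoli cells, and keeps retinoic acid away from the germ cells. In the fetal ovary retinoic acid induces Stra8, which is needed for germ cells to begin meiosis.

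A level is the log2 processed signal of a probe minus the 75th percentile of the same array, so 0 is a bright probe and -6 is close to background. A difference is double knockout minus wild type on that log2 scale with its standard error (SE) from limma, n = 2 arrays per genotype. A gene is called changed at a Benjamini-Hochberg adjusted p below 0.05 over all 21201 features tested. Both wild-type arrays lay on 1 slide and both double knockout arrays on another slide of the same scan day, so slide and genotype cannot be told apart. The Cyp26b1 knockout arrays lay on a further slide of another scan day. The arrays of a genotype had a Pearson r across 19547 features of 0.996 in wild type, 0.995 in the double knockout and 0.994 in the Cyp26b1 knockout. Spots marked as background outliers numbered 1820 and 1724 on the double knockout arrays and 519 and 364 on the wild-type arrays, and their part in the results was not tested beyond the background alternatives.

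Of the 21201 features, 1218 were higher and 1518 were lower in the double knockout, which is 12.9% in all. Among the 12885 features with a gene symbol, 936 were higher (7.26%) and 855 were lower (6.64%). The shares of a gene list called higher or lower below are to be set beside these. The median difference over genes with a symbol was 0.03. A difference of at least 2-fold was reached by 248 named genes that were higher and by 354 that were lower, and one of at least 4-fold by 61 and by 93. The counts rest on both wild-type arrays: without wild-type replicate 1 there were 351 higher and 345 lower features, and without wild-type replicate 2 there were 293 and 285. The direction of small changes depends on the scaling between arrays. With the scaling of the authors' deposited value table, which lowers every difference by 0.20, 13% of the calls were higher in place of 44.5%, and with median scaling, which raises every difference by 0.13, 70.6% were.

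**Figure D1:**
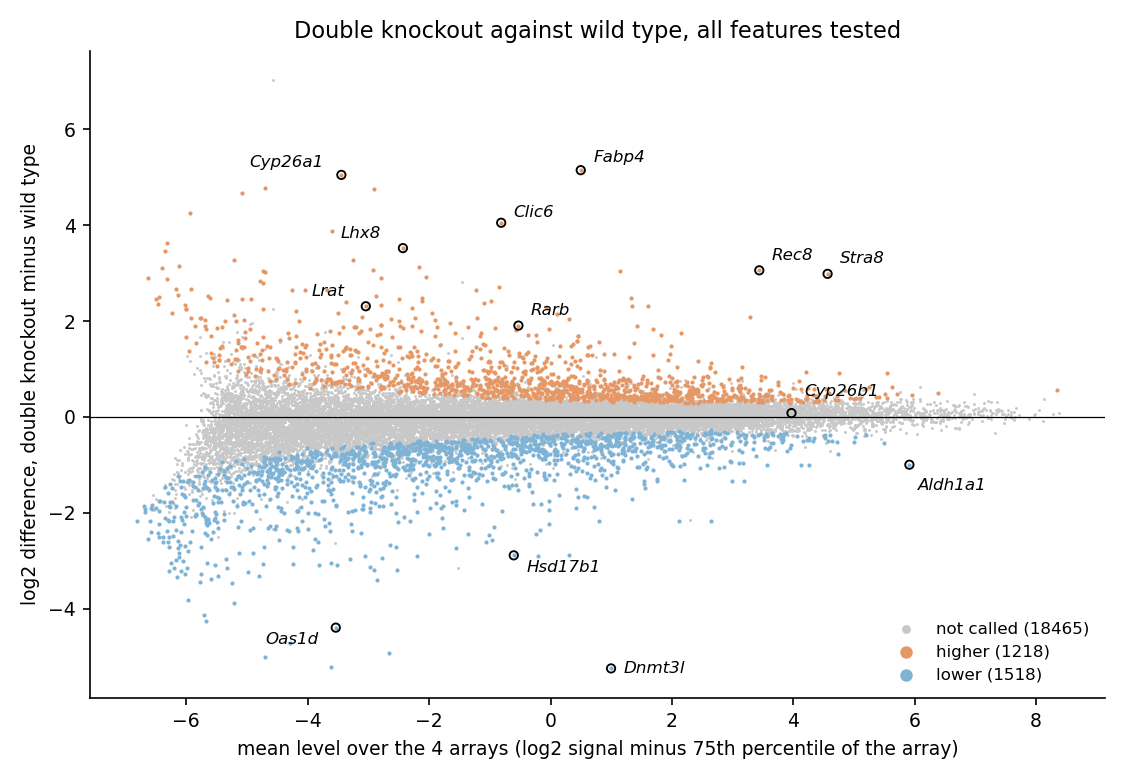
Each point is 1 of the 21201 features tested, with its mean level over the 4 arrays on the horizontal axis and the log2 difference, double knockout minus wild type, on the vertical axis. Orange points (1218) were called higher and blue points (1518) lower, grey points were not called, and ringed points are genes named in the text: Cyp26a1 and Fabp4 lie above 5 and Dnmt3l below -5, while Cyp26b1 lies at 0.08.

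The targeted genes come first. The single Cyp26b1 probe stood at 4.03 and 3.83 in wild type and at 4.11 and 3.91 in the arrays labelled double knockout, a difference of 0.08 ± 0.15 (adjusted p = 0.769). The single Stra8 probe stood at 3.73 and 2.41 in wild type, at 5.98 and 6.14 in the arrays labelled double knockout and 7.19 and 7.04 in the arrays labelled Cyp26b1 knockout. Neither probe was thus dimmer in the arrays labelled double knockout. Stra8 was 7.91-fold brighter there than in wild type (2.98 ± 0.36, adjusted p = 0.00343) and lower than in the Cyp26b1 knockout by a difference of -1.05 ± 0.36 (adjusted p = 0.0469). The position of either probe against its deletion is unknown here, and a probe that lies outside a deletion checks nothing. Every genotype below is that of the label.

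Cyp26a1 and Rarb, a retinoic acid-degrading enzyme and a retinoic acid receptor, are known for promoters that carry a retinoic acid response element of the DR5 type. A DR5 element is a direct repeat of the receptor half-site with 5 bases between the copies. Their promoters are shown because both genes rose in the double knockout and because such elements bind the receptors. The sequences are from RefSeq on GRCm38.p6, 5′ to 3′ on the strand of the gene, and end 1 base before the annotated start of the transcript. Capitals mark both half-sites that a search of both strands found.
Cyp26a1, chr19:37697736-37697807, plus strand: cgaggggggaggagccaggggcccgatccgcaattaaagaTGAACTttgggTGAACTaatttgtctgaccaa
Rarb, chr14:16575477-16575569, minus strand: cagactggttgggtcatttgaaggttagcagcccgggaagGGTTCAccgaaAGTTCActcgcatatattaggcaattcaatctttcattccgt
In Cyp26a1 the element reads on the strand opposite to the gene and spans positions -32 to -16 from the start. In Rarb it reads on the same strand and spans positions -53 to -37.

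A DR5 element was found in 32 of 32851 RefSeq promoter windows, or 0.0974%, each window running from 250 bases before to 50 bases after a start. These windows belong to 31 genes, of which 6 were tested, 2 being higher and 1 lower. Repeats with other spacings gave 2 of 10 tested genes higher for spacing 0, 4 of 28 for spacing 1 and 2 of 10 for spacing 2. Spacing 8 gave 2 of 8 higher, and spacings 3, 4, 6 and 7 gave 0 or 1. Lower genes numbered 1 of 6 for spacing 3, 2 of 12 for spacing 7 and 0 for spacings 0, 1, 2, 4, 6 and 8. Besides Cyp26a1 and Rarb, which were higher, the receptor gene Prokr2 fell by 1.31 ± 0.13 (adjusted p = 0.00210), from 0.62 and 0.51 in wild type to -0.88 and -0.60. The heme enzyme gene Blvrb, the embryonic globin gene Hbb-y and the platelet chemokine gene Ppbp were not called. The windows of Rec8, Stra8, Dhrs3, Lrat, Crabp1, Rbp4, Rarg, Hoxa2, Hoxa5, Hoxb1 and Hoxb4 do not hold these letters, which says nothing of elements outside the windows.

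In the list of retinoic acid clearance, Cyp26a1 and Dhrs3 were higher in the double knockout. Cyp26a1 stood at -5.46 and -6.48 in wild type, where it was well above background on 1 of the 2 arrays, and at -0.83 and -1.01 in the double knockout. It rose by 5.05 ± 0.32, or 33.1-fold at these levels (adjusted p = 0.000350). The size depends on how the dim wild-type signal is treated, since normexp background correction on all spots gave a rise of 1.81. In the Cyp26b1 knockout it stood at -1.36 and -0.90, and the double knockout differed from that by 0.21 ± 0.32 (adjusted p = 0.633). Dhrs3, which turns retinaldehyde back to retinol, stood at 1.64 and 1.68 in wild type and at 2.36 and 2.30 in the double knockout, a rise of 0.67 ± 0.09 (adjusted p = 0.00475). It was lower than in the Cyp26b1 knockout by a difference of -0.36 (adjusted p = 0.0141). Of the 3 clearance genes tested, these 2 were higher and Cyp26b1 was not called.

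Of 17 genes of retinoid synthesis and storage, 2 were higher (11.8%), 2 were lower (11.8%) and 13 were not called, with a median difference of -0.10. Lrat, which stores retinol as esters, stood at -4.05 and -4.34 in wild type and at -1.93 and -1.85 in the double knockout, a rise of 2.31 ± 0.24 (adjusted p = 0.00224). Aldh1a3, a retinaldehyde dehydrogenase that makes retinoic acid, stood at -0.42 and -0.53 in wild type and rose by 0.84 ± 0.10 to 0.27 and 0.44 (adjusted p = 0.00367). Aldh1a1, another enzyme of that step, was among the brightest probes at 6.45 and 6.37 in wild type and fell by 0.999 ± 0.10 to 5.50 and 5.33 (adjusted p = 0.00172). Aldh1a7, its close relative, fell by 1.64 ± 0.19 from 1.19 and 0.72 to -0.70 and -0.67 (adjusted p = 0.00291). A probe of 1 of such similar genes may also bind the other. Aldh1a2, the main retinoic acid-making enzyme of the embryo, stood at 3.03 and 3.11 in wild type and at 2.79 and 3.002 in the double knockout, and its difference of -0.18 had a 95% interval of -0.40 to 0.05. Each of the 4 called genes had both double knockout arrays on 1 side of both wild-type arrays. The calls of Lrat and Aldh1a1 were lost with normexp on all spots.

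The retinol dehydrogenase gene Rdh12 set the knockouts apart. It stood at -0.05 and -0.41 in wild type, at -0.41 and -0.64 in the double knockout and 1.05 and 0.86 in the Cyp26b1 knockout. The difference between the knockouts was -1.48 ± 0.15 (adjusted p = 0.000624), in a contrast in which 43.7% of all features were called. The carotenoid-cleaving enzyme gene Bco1 stood at -4.41 and -3.85 in wild type, at -4.03 and -4.01 in the double knockout and -7.91 and -6.43, not well above background, in the Cyp26b1 knockout. These 2 genes had double knockout arrays close to wild type and Cyp26b1 knockout arrays far from both. The Cyp26b1 knockout arrays differ from the others by slide and scan day as well as by Stra8, so those sources of a difference between the knockouts cannot be told apart, here and below.

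Among 8 genes of retinoid binding and transport, 3 were higher (37.5%) and 1 was lower (12.5%), while the median difference was -0.50. Rbp4, the retinol carrier of plasma, rose by 0.68 ± 0.10 from 1.02 and 1.19 to 1.84 and 1.73 (adjusted p = 0.00630), and stood at 1.16 and 1.26 in the Cyp26b1 knockout, 0.57 lower (adjusted p = 0.00337). The double knockout arrays of Rbp4 were thus the highest of the 3 genotypes. Crabp1, which binds retinoic acid in the cytoplasm, rose by 1.13 ± 0.16 from -2.05 and -2.11 to -0.899 and -1.005 (adjusted p = 0.00663), while its relative Crabp2 was not called. The call of Rbp4 ended without wild-type replicate 1 and that of Crabp1 without wild-type replicate 2. Stra6l, a transporter-like relative of the retinol receptor Stra6, was lower by a difference of -0.87 ± 0.21 (adjusted p = 0.0356), a call lost without any 1 of the 4 arrays.

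Of the 6 retinoid receptors, 2 were higher in the double knockout (33.3%). Rarb stood at -1.52 and -1.44 in wild type, at 0.44 and 0.40 in the double knockout and 0.40 and 0.53 in the Cyp26b1 knockout. Its rise of 1.90 ± 0.10 (3.74-fold, adjusted p = 0.000222) differed from that level in the Cyp26b1 knockout by -0.04 (adjusted p = 0.741). Rarg rose by 0.73 ± 0.17 from -3.86 and -3.94 to -3.05 and -3.28 (adjusted p = 0.0313). Leaving out any 1 of the 4 arrays ended this call, while normexp on all spots gave -0.16. The call of Rarg was also lost with the mean of its probes, with the authors' scaling and with no filter on dim probes. Rara, the third receptor of this family, stood at -4.77 and -4.72 in wild type and at -4.95 and -4.79 in the double knockout, with a 95% interval of the difference from -0.64 to 0.41. In the Cyp26b1 knockout Rara stood at -3.32 and -3.76, and the double knockout differed from it by -1.33 ± 0.22 (adjusted p = 0.00333). Their partner Rxrb was also lower in the double knockout than in the Cyp26b1 knockout (-0.56, adjusted p = 0.00176), as was Rxrg (-0.67, adjusted p = 0.0234), and neither was called against wild type, nor was Rxra.

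**Figure D2:**
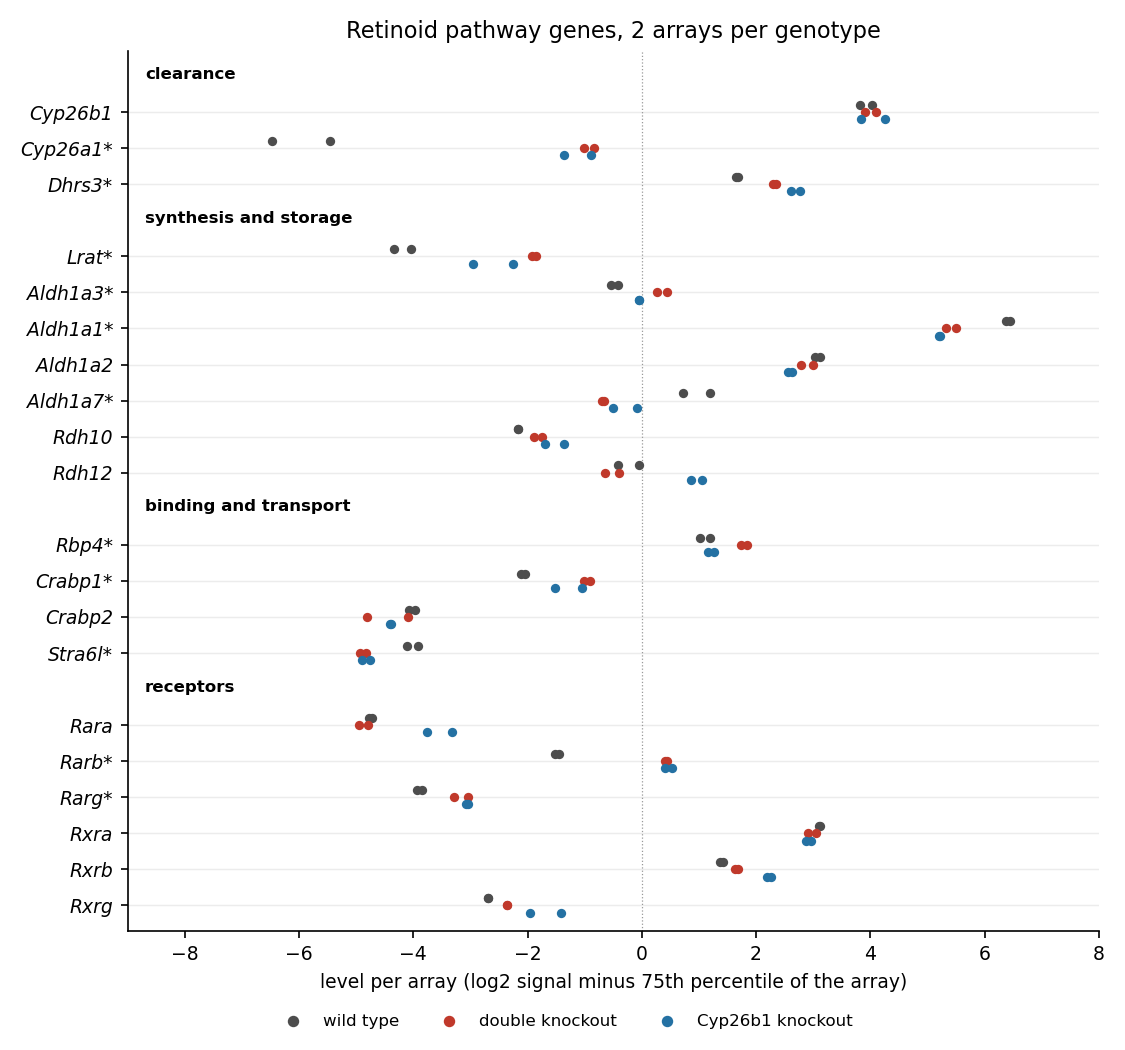
Each row is a gene of the retinoid pathway and each point 1 array, with the level on the horizontal axis as log2 signal minus the 75th percentile of the array; colours give the 3 genotypes and an asterisk marks a gene called between double knockout and wild type. Cyp26a1, Lrat and Rarb had double knockout arrays well to the right of wild type, Aldh1a1 and Aldh1a7 to the left, and Rara and Rdh12 had Cyp26b1 knockout arrays to the right of both other genotypes.

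Hox genes encode transcription factors that pattern the body axis, lie in 4 clusters, and include classic retinoic acid targets at the 3′ end of each cluster, where paralogues 1 to 5 lie. More of this list is described than of others, a choice made after its values were seen. Of 15 genes of paralogues 1 to 5 tested, 9 were higher (60%) and 0 were lower, with a median difference of 1.16. Hoxa5 rose by 2.64 ± 0.22 from -5.09 and -5.64 to -2.63 and -2.82 (adjusted p = 0.00113). Hoxb1 was not well above background in wild type (-7.83 and -7.64), stood at -5.10 and -5.46 in the double knockout and was at least 1.56-fold higher (adjusted p = 0.00639). Further rises were 1.72 for Hoxa4, 1.60 for Hoxa2, 1.45 for Hoxb4, 1.22 for Hoxb5 and 1.16 for both Hoxb2 and Hoxb3. In each of these genes both double knockout arrays lay above both wild-type arrays.

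The genes named so far belong to the Hox A and Hox B clusters. In the same clusters, Hoxa3 was not called and had a difference of -0.36 ± 0.15 at its brightest probe (adjusted p = 0.156) and 1.62 at another probe, so its probes disagree. Those of Hoxb3 disagree as well, since its other probe gave -0.03. The 5 genes of the Hox C and Hox D clusters, Hoxc4, Hoxc5, Hoxd1, Hoxd3 and Hoxd4, were not called, with differences of -0.48 to 0.06. Hoxc4 stood at -3.67 and -4.05 in wild type, at -4.18 and -4.41 in the double knockout and -2.92 and -3.13 in the Cyp26b1 knockout. Hoxc5 stood at -4.76 and -4.54, -4.56 and -4.62, and -3.69 and -3.49 in those genotypes. Both were lower in the double knockout than in the Cyp26b1 knockout, by differences of -1.27 ± 0.21 (adjusted p = 0.00292) and -0.999 ± 0.20 (adjusted p = 0.00651). These are dim probes: all 9 calls were lost when the background was refitted with normexp on all spots, where Hoxa2, Hoxb1 and Hoxb5 turned below 0, while 8 or 9 genes were called under the other settings that kept all arrays and 7 to 9 without 1 array. The calls of Hoxb1 and Hoxb5 ended without wild-type replicate 1.

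Of 14 genes of paralogues 6 to 13, 3 were higher (21.4%) and 0 lower, with a median of -0.08. Hoxb7 stood at -0.66 and -0.67 in wild type, at 0.57 and 0.33 in the double knockout and -0.48 and -0.59 in the Cyp26b1 knockout. It rose by 1.11 ± 0.11 against wild type (adjusted p = 0.00210) and was higher than in the Cyp26b1 knockout by 0.98 (adjusted p = 0.000891). Hoxb9 rose by 0.92 ± 0.16 (adjusted p = 0.0126) and Hoxa7 by 0.75 ± 0.17 (adjusted p = 0.0318). The call of Hoxa7 ended on leaving out any 1 of the 4 arrays, and that of Hoxb9 without wild-type replicate 2 or double knockout replicate 1. These 3 genes lie in the Hox A and B clusters too. Of 11 genes of the TALE family, the DNA-binding partners of Hox proteins, only Pbx3 was called, with a difference of -0.49 ± 0.10 (adjusted p = 0.0226), and not without either wild-type array or double knockout replicate 2. That is 9.09% of the TALE genes called lower, against 6.64% of all genes with a symbol.

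**Figure D3:**
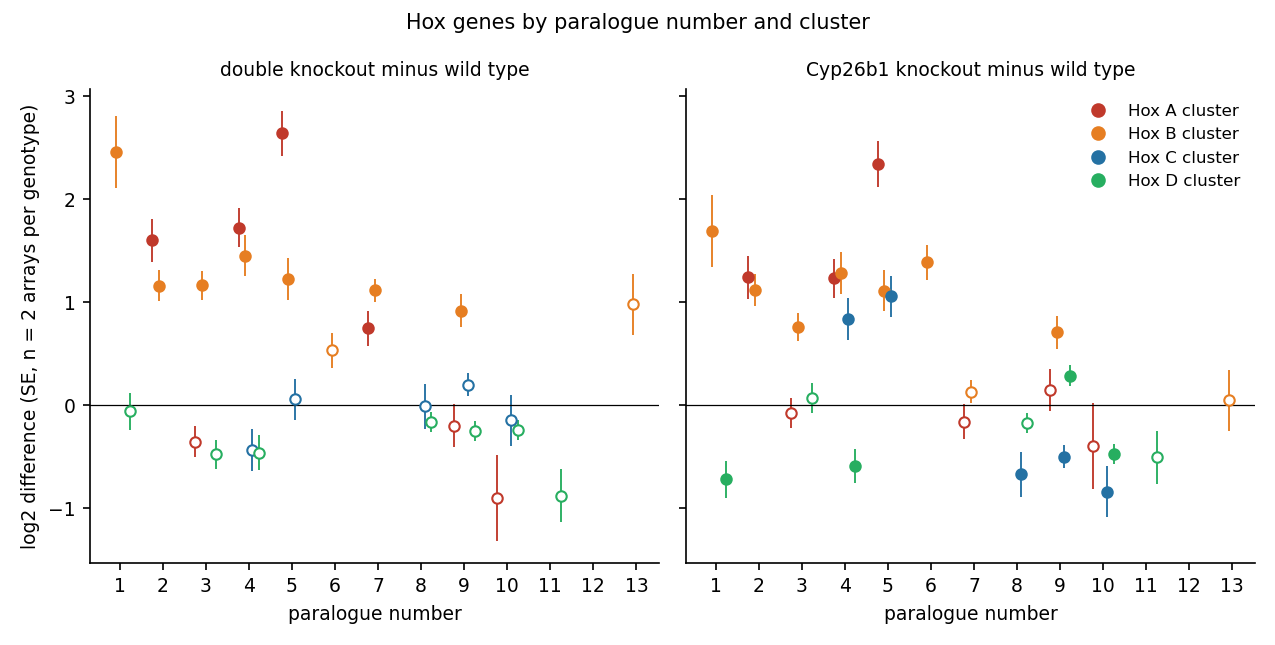
Each point is 1 of the Hox genes reported here, at its paralogue number, with its log2 difference from wild type on the vertical axis, the SE as a bar (n = 2 arrays per genotype) and the cluster as colour; filled points were called at an adjusted p below 0.05. The left panel shows the double knockout, where the called genes shown among paralogues 1 to 5 lie between 1.16 and 2.64, all in clusters A and B, and the 5 genes of clusters C and D between -0.48 and 0.06; the right panel shows the Cyp26b1 knockout, which shares the wild-type arrays.

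Of 43 genes known as retinoic acid targets in other tissues, 8 were higher (18.6%) and 4 lower (9.30%), with a median of 0.02. Gbx2, a homeobox gene of the anterior hindbrain, was not well above background in wild type (-6.44 and -6.66) and stood at -4.01 and -4.22 in the double knockout, at least 3.50-fold higher (adjusted p = 0.00141), but normexp on all spots ended this call and gave -0.057. Plat, the tissue plasminogen activator, rose by 0.85 ± 0.08 from 1.57 and 1.504 to 2.38 and 2.38 (adjusted p = 0.00185). Tgm2, the tissue transglutaminase, rose by 0.55 ± 0.09 (adjusted p = 0.00935) and Ccnd1, a cyclin of early G1, by 0.82 ± 0.13 (adjusted p = 0.00986). Krt8, a keratin of simple epithelia, was lower by a difference of -0.84 ± 0.13 (adjusted p = 0.00771). Of 16 nuclear receptor coregulators, Ncoa3, a coactivator, was the only one called (0.81 ± 0.12, adjusted p = 0.00809). That is 6.25% of the coregulators called higher, against 7.26% of all genes with a symbol. Krt8, Ncoa3 and Tgm2 lost their calls without either wild-type array, Tgm2 also without double knockout replicate 1, and Ccnd1 without wild-type replicate 2.

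The largest called rise among named genes measured on all 4 arrays was that of Fabp4, a fatty acid-binding protein of fat cells and capillaries. It stood at -2.03 and -2.12 in wild type and at 3.16 and 2.98 in the double knockout, a rise of 5.15 ± 0.11, or 35.4-fold (adjusted p = 3.05e-06), and its other 2 probes gave 4.97 and 5.31. Clic6, of the chloride intracellular channel family, rose by 4.05 ± 0.14 from -2.86 and -2.81 to 1.22 and 1.21, and stood between these at -0.36 and 0.05 in the Cyp26b1 knockout. Cidea, a lipid droplet protein, rose by 3.04 ± 0.12 from -0.47 and -0.28 to 2.75 and 2.59. Fabp4 and Cidea are both proteins of lipid handling. Others among the 12 largest rises were Lhx8, Rnf138rt1, Pde4c (a cyclic AMP phosphodiesterase), Rec8, Stra8, Rnase1 (a secreted ribonuclease), the homeobox gene Cphx1 and Cd38, an enzyme that consumes NAD. The rises of these 8 ran from 2.65 for Cd38 to 3.52 for Lhx8, and the call of Cphx1 ended without wild-type replicate 1. Among genes not well above background in wild type, the largest bounds were those of the transporter gene Slc46a2, at least 6.66-fold higher, the muscle protein gene Myoz2, at least 5.98-fold, and Spint4, a protease inhibitor gene, at least 5.84-fold. The calls of Slc46a2, Myoz2 and Spint4 were each lost with normexp on all spots.

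Rec8, the cohesin subunit that holds sister chromatids together in meiosis, stood at 1.81 and 2.02 in wild type, at 4.82 and 5.12 in the double knockout and 4.88 and 4.47 in the Cyp26b1 knockout. It rose by 3.06 ± 0.16, or 8.32-fold (adjusted p = 0.000222), 3.02 at its other probe, and differed from the Cyp26b1 knockout by 0.29 (adjusted p = 0.178). Of 14 genes of meiotic cohesin, axis and synaptonemal complex, 5 were higher (35.7%) and 0 lower, with a median of 0.43. Besides Rec8 these were Hormad1, an axis protein (0.66 ± 0.10, adjusted p = 0.00767), Sycp1, the transverse filament of the synaptonemal complex (0.57 ± 0.11, adjusted p = 0.0192), Stag3, another cohesin subunit (0.56 ± 0.13, adjusted p = 0.0299), and Syce2, of the central element (0.59 ± 0.15, adjusted p = 0.0410). The last 3 were each lost without wild-type replicate 2 or double knockout replicate 2, and Hormad1 without wild-type replicate 2, so 1 of the 14 was called without the former array and 2 without the latter. In the Cyp26b1 knockout 10 of the same 14 genes were higher than wild type and 2 lower, in a contrast in which 52.0% of all features were called. The 2 comparisons share the wild-type arrays.

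Of 28 listed genes of meiotic recombination and crossover, 13 had no matched probe and 3 were too dim, which left 12 tested. Of these, 5 had an unadjusted limma p below 0.05, as did 6407 of all 21201 features. After adjustment 0 of the 12 were called by limma in the double knockout, against 12.9% of all features, with a median of 0.03. Under the other settings 0 to 3 were higher and 0 to 2 lower. The genes with the smallest adjusted p were Spo11, the enzyme that cuts DNA to start recombination (-0.55 ± 0.16, adjusted p = 0.0610), and Trip13, an ATPase that remodels the axis (0.33 ± 0.09, adjusted p = 0.0627). Dmc1, Msh5 and Ugt8a, named after their values were seen, stood apart between the knockouts. Dmc1, the strand-exchange protein of meiosis, stood at -2.46 and -3.42 in wild type, at -3.10 and -3.36 in the double knockout and -0.83 and -0.85 in the Cyp26b1 knockout. Msh5, a crossover factor, stood at -4.13 and -4.12, -4.57 and -4.55, and -2.08 and -1.67 in those genotypes. The double knockout was lower than the Cyp26b1 knockout by a difference of -2.39 ± 0.29 for Dmc1 (adjusted p = 0.00102) and -2.69 ± 0.19 for Msh5 (adjusted p = 0.000350). Neither was called against wild type, Dmc1 with a 95% interval of -0.96 to 0.38 and Msh5 with a difference of -0.44 ± 0.19 (adjusted p = 0.168). Ugt8a, a galactosyltransferase of lipid synthesis counted here with the axis genes, stood at -3.56 and -4.22, -4.42 and -4.10, and -1.07 and -1.03 in that order, lower than in the Cyp26b1 knockout by -3.21 ± 0.24 (adjusted p = 0.000359). Sycp3, an axis protein, was not called against wild type (0.29 ± 0.14, adjusted p = 0.218) and was below the Cyp26b1 knockout by a difference of -0.70 (adjusted p = 0.00726).

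Of 11 regulators of meiotic entry, 3 were higher, among them the targeted gene Stra8, and 1 was lower. The shares were 27.3% and 9.09%, against 7.26% and 6.64% over all genes with a symbol. Besides Stra8, Dazl, an RNA-binding protein that licenses germ cells for sexual differentiation, rose by 0.56 ± 0.14 (adjusted p = 0.0429), and Pcgf6, a Polycomb component that represses meiotic genes, rose by 0.53 ± 0.13 (adjusted p = 0.0376). Msx2, a homeobox gene downstream of BMP signalling, was lower by a difference of -0.73 ± 0.16 (adjusted p = 0.0297). The calls of these 3 genes were each lost without either wild-type array, and that of Pcgf6 also with the mean of its probes.

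The male germ cell and piRNA genes moved the other way: of 22 tested, 7 were lower (31.8%) and 0 higher, with a median of -0.31. Dnmt3l, which helps the methyltransferases of male germ cells, stood at 3.55 and 3.69 in wild type, at -1.10 and -2.16 in the double knockout and -3.88 and -2.94 in the Cyp26b1 knockout. It had the largest fall measured on all 4 arrays, 38.1-fold (-5.25 ± 0.38, adjusted p = 0.000633), and was 1.78 ± 0.38 higher than in the Cyp26b1 knockout (adjusted p = 0.00853). Dnd1, which protects germ cells, was lower by -0.97 ± 0.13 (3.53 and 3.78 against 2.60 and 2.77, adjusted p = 0.00531), and 1.04 higher than in the Cyp26b1 knockout (adjusted p = 0.00121). Nanos2, the RNA-binding protein that commits germ cells to the male path, stood at -0.62 and -0.38 in wild type, at -1.91 and -1.11 in the double knockout and -3.29 and -3.58 in the Cyp26b1 knockout. Its difference of -1.005 ± 0.26 was called (adjusted p = 0.0443) but lost in 10 of the alternatives, and it was 1.92 higher than in the Cyp26b1 knockout (adjusted p = 0.00140). For these genes the double knockout arrays lay between those of wild type and of the Cyp26b1 knockout. The remaining falls were those of Piwil1 (-1.55), a piRNA-binding protein, Mael (-0.44), a piRNA pathway protein, the methyltransferase Dnmt3a (-1.05) and the homeobox gene Lhx1 (-1.94). Lhx1 is also counted below among genes of mesonephros and duct epithelium. Mael and Dnmt3a lost their calls without any 1 of the 4 arrays, and Piwil1 without either wild-type array. The piRNA-pathway protein Tdrd1 and the germline silencing factor Morc1 did not pass the test against wild type (adjusted p = 0.156 and 0.119) and were 1.503 and 2.43 higher than in the Cyp26b1 knockout (adjusted p = 0.00169 and 0.00136). Of the 22, 3 were lower without either wild-type array and 4 without double knockout replicate 1. In the Cyp26b1 knockout 18 of the 22 were lower than wild type and 1 was higher, in a contrast in which 52.0% of all features were called.

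Of 20 general germ cell markers, 6 were higher (30%) and 2 lower (10%). Kit, the receptor of stem cell factor, stood at -0.63 and -0.54 in wild type and at 0.71 and 1.06 in the double knockout, a rise of 1.47 ± 0.13 (adjusted p = 0.00128). Taf7l, a germ cell transcription factor subunit, rose by 1.30 ± 0.13 (adjusted p = 0.00210) and Hells, a chromatin remodeller, by 1.04 ± 0.09 (adjusted p = 0.00107). Brdt, a bromodomain protein of the male germ line, was lower by -1.46 ± 0.22 (adjusted p = 0.00741), except without wild-type replicate 2. Ddx4, a helicase found in all germ cells, stood at 4.33 and 4.53 in wild type and at 4.31 and 4.35 in the double knockout and was not called. The summed linear level of the 20 markers was 143 to 148 in wild type and 147 to 182 in the double knockout. Its part in the germ cell results was not tested. In whole gonads, fewer cells of a type and less RNA per cell cannot be told apart.

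Of 16 oocyte genes, 3 were higher (18.8%) and 3 lower (18.8%). Lhx8, a homeobox factor of early oocytes, stood at -4.13 and -4.25 in wild type, at -0.73 and -0.61 in the double knockout and -3.63 and -2.18 in the Cyp26b1 knockout. It rose by 3.52 ± 0.40 (adjusted p = 0.00294) and was 2.23 ± 0.40 higher than in the Cyp26b1 knockout (adjusted p = 0.00424), where neither array reached the double knockout level. Figla, a bHLH factor of oocytes, rose by 1.87 ± 0.18 (adjusted p = 0.00188). Sohlh2, another bHLH factor of germ cells, rose by 2.38 ± 0.24 (adjusted p = 0.00210) and differed from the Cyp26b1 knockout by -1.59 (adjusted p = 0.00223). Among the lower genes, Oas1d was at least 18.4-fold lower, since it was not well above background on either double knockout array, and Padi6 and Khdc3, of the egg's cytoplasmic complex, had differences of -3.09 and -1.85. With normexp on all spots the calls of Figla, Oas1d and Padi6 were lost. Of 22 genes of pluripotency and Nodal signalling, 2 were higher (9.09%) and 3 lower (13.6%). The nuclear receptor gene Nr0b1 rose by 1.26, and Dppa4 (-1.34), Utf1 (-0.99) and Tfcp2l1 (-1.36) fell. The calls of Utf1, Tfcp2l1 and Khdc3 ended without either wild-type array or double knockout replicate 1, and that of Dppa4 without wild-type replicate 2.

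**Figure D4:**
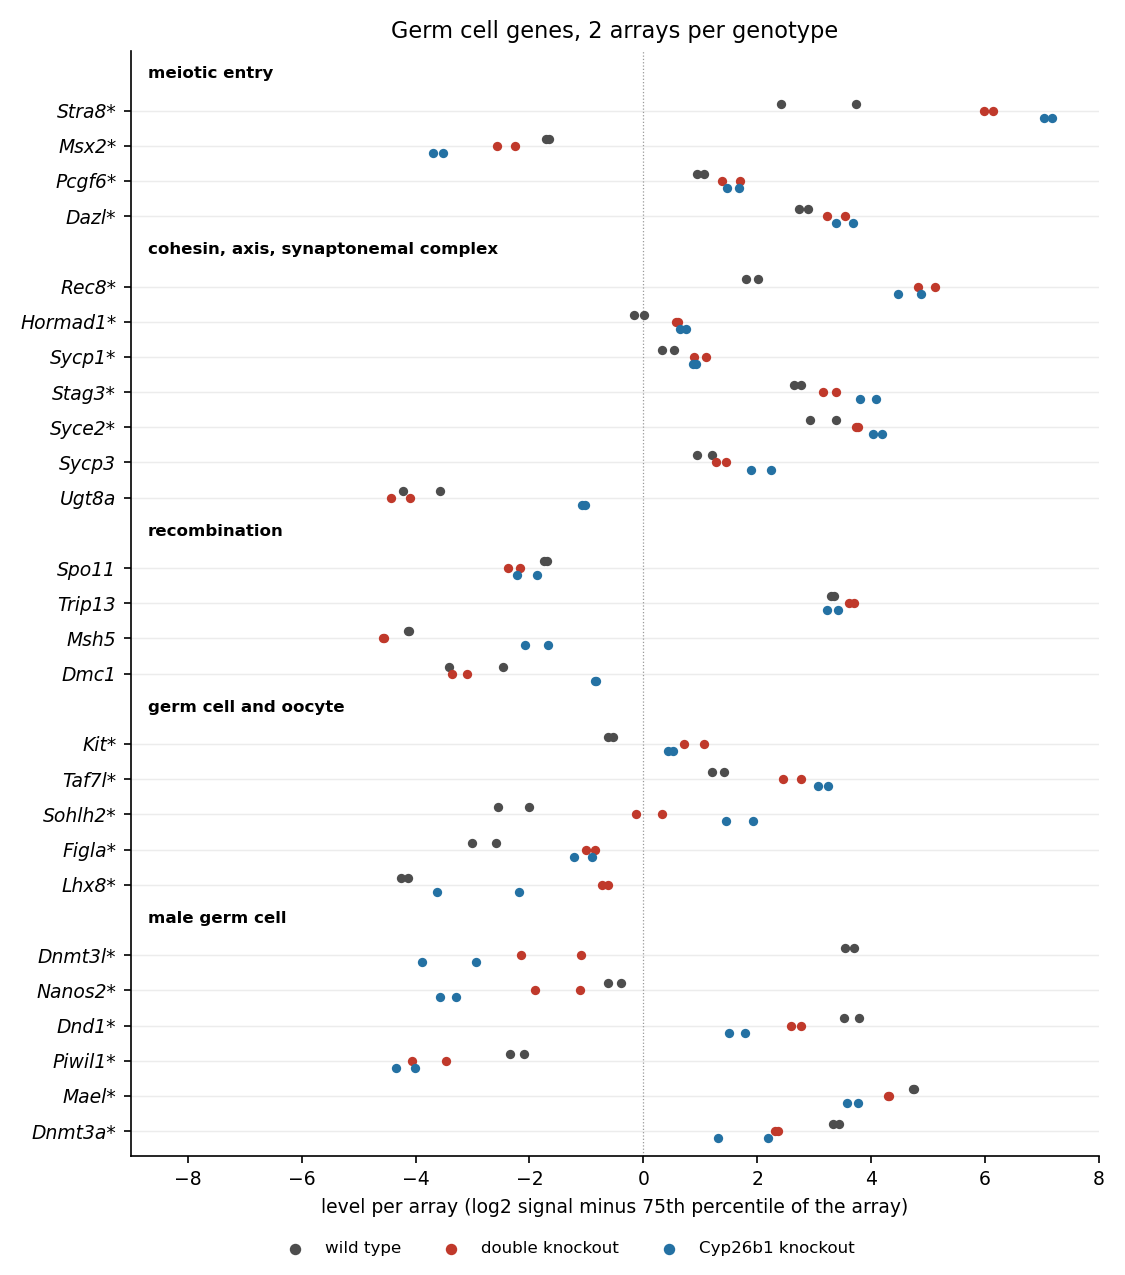
Each row is a germ cell gene and each point 1 array, with the level on the horizontal axis as log2 signal minus the 75th percentile of the array; colours give the 3 genotypes and an asterisk marks a gene called between double knockout and wild type. Rec8 and Figla had double knockout arrays at the level of the Cyp26b1 knockout, Ugt8a, Msh5 and Dmc1 had them near wild type, and Dnmt3l, Nanos2 and Dnd1 had them between both.

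Somatic genes changed in both directions. Of 29 Sertoli cell genes, 6 were higher and 8 lower, with a median of -0.04, and 2 were lower without either wild-type array. With all arrays the shares of this list were 20.7% higher and 27.6% lower, against 7.26% and 6.64% over all genes with a symbol. Hsd17b1 and Hsd17b3 encode enzymes that make active sex steroids. Hsd17b1 fell from 1.08 and 0.60 in wild type to -1.98 and -2.12, 7.41-fold (-2.89 ± 0.22, adjusted p = 0.000722). Hsd17b3, which makes testosterone in fetal Sertoli cells, fell from 1.31 and 1.26 to -0.23 and -0.55 (-1.68 ± 0.12, adjusted p = 0.000641), and was also below the Cyp26b1 knockout by a difference of -0.88 (adjusted p = 0.00165). Both double knockout arrays lay below both wild-type arrays for these 2 genes. Amh, the hormone that removes the female ducts, was lower by -0.47 ± 0.12 (adjusted p = 0.0456), a call lost without any 1 of the 4 arrays. Sox9, the testis-determining factor downstream of Sry, was not called (0.49 ± 0.14, adjusted p = 0.0686). Cldn11, a tight junction protein, rose by 1.55 ± 0.13 from 0.73 and 0.46 to 2.18 and 2.11 (adjusted p = 0.000984), and Shbg, a steroid carrier, rose by 1.14 ± 0.11 (adjusted p = 0.00188). The orphan nuclear receptor gene Nr0b1, also counted with the pluripotency genes above, rose from 0.70 and 0.62 to 2.02 and 1.81 (adjusted p = 0.00117).

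Of 22 fetal Leydig cell genes, 1 was higher (4.55%) and 5 were lower (22.7%). Star, which brings cholesterol into mitochondria, stood at 3.62 and 3.56 in wild type and at 2.68 and 2.55 in the double knockout (-0.97 ± 0.15, adjusted p = 0.00828). Fdxr, Acsl4, Sct and Scarb1 had differences of -0.53 to -0.43, and the steroid enzyme gene Cyp17a1 was not called (-0.55 ± 0.16, adjusted p = 0.0685). Cited4, a coactivator-binding protein, rose by 1.68 ± 0.15 (adjusted p = 0.00154). The summed linear level of the Leydig list was 310 to 336 in wild type and 252 to 287 in the double knockout. Of 24 genes of cholesterol synthesis, 0 were higher and 4 lower, or 16.7% lower against 6.64% of all genes with a symbol. The largest fall was that of Hsd17b7 (-0.64 ± 0.09, adjusted p = 0.00559). Leaving out 1 array gave 0 to 3 lower genes of this list, and Stard4, 1 of the 4, had probes that disagree. Of 23 ovarian somatic and Wnt genes, 6 were higher and 3 lower, with Wnt4, the signal of ovarian development, up by 0.76 ± 0.09 (adjusted p = 0.00363), Sp5, a Wnt target, up by 1.27 ± 0.16 (adjusted p = 0.00381), and Axin2, another Wnt target, down (-0.50 ± 0.11, adjusted p = 0.0267), a call that ended without any 1 of the 4 arrays. The 5 falls of Leydig genes were each lost without either wild-type array, and Hsd17b7 without wild-type replicate 2.

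Of 25 interstitial and peritubular genes, 4 were higher (16%) and 1 lower (4%). They were led by the homeobox gene Lhx2 (1.25 ± 0.10, adjusted p = 0.000966) and the proteoglycan gene Lum (1.04 ± 0.13, adjusted p = 0.00425). The summed linear level of this list was 176 to 188 in wild type and 204 to 217 in the double knockout. Of 24 endothelial genes, 5 were higher and 1 lower. The endothelial cadherin gene Cdh5, named after its values were seen, stood at 1.65 and 1.46 in wild type and at 1.77 and 1.43 in the double knockout. The list's summed linear level was 66.1 to 67.8 in wild type and 71.3 to 76.3 in the double knockout. The part of endothelial cells in the rise of Fabp4, which is also a capillary protein, was not tested. Of 25 blood and macrophage genes, 1 was higher and 3 lower, or 16% called against 12.9% of all features. Of 18 genes of mesonephros and duct epithelium, 1 was higher (5.56%) and 3 lower (16.7%). Among the lower ones was Wfdc2 (-1.20 ± 0.20, adjusted p = 0.0109), a call lost without wild-type replicate 2 or double knockout replicate 2. Lhx1 and Krt8 are members of the mesonephros list as well as of lists described above. The mesonephric genes summed to 17.9 to 19.9 in wild type and 13.9 to 14.5 in the double knockout. Pax2, which defines that epithelium, was well above background on 0 of the wild-type and double knockout arrays. The part of cell makeup in the other results was not tested.

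Of 35 genes of replication and mitosis, 4 were higher and 0 lower, or 11.4% higher against 7.26% of all genes with a symbol. The 4 higher genes included the replicative helicase genes Mcm2 (0.43) and Cdc45 (0.54). Of 16 cell cycle inhibitors, 3 were higher (18.8%) and 2 lower (12.5%). Cdkn2b fell from -0.49 and -0.27 to -1.80 and -1.62 (-1.33 ± 0.14, adjusted p = 0.00224) and Cdkn1a by 0.65 ± 0.12 (adjusted p = 0.0145). Of 26 p53 targets and apoptosis genes, 2 were higher and 2 lower, or 15.4% called against 12.9% of all features. Pmaip1, a cell death inducer, was lower by -1.02 ± 0.19 (adjusted p = 0.0163). Of 22 immediate early and stress genes, 1 was higher and 2 lower, a share near that of all features. Mcm2 and Cdkn1a lost their calls without any 1 of the 4 arrays, and Cdc45 and Pmaip1 without either wild-type array or double knockout replicate 1.

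**Figure D5:**
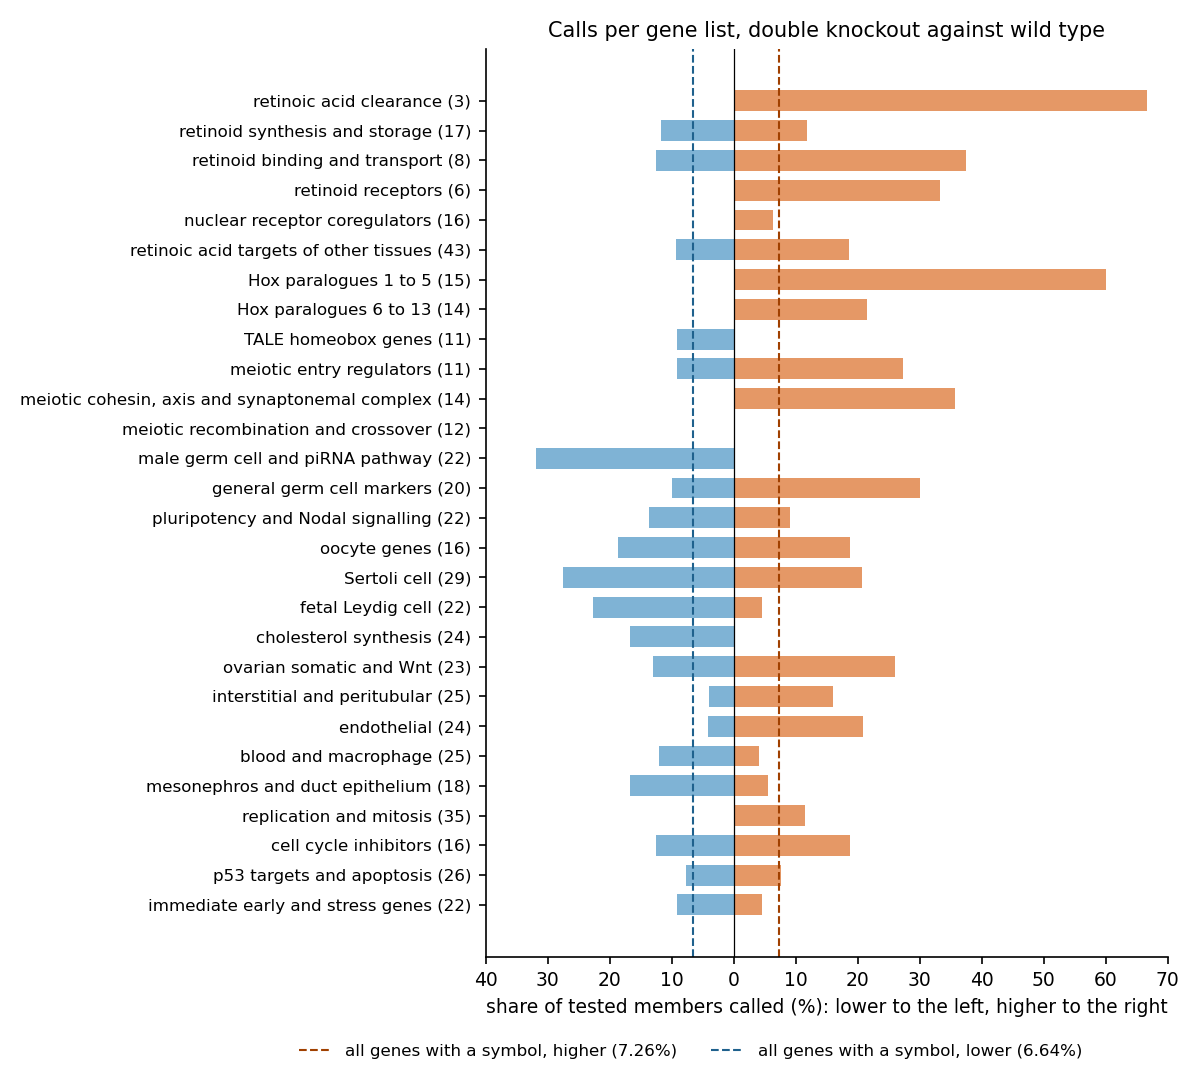
Bars give, for each gene list with the number of tested members in brackets, the share of members in percent called higher (right, orange) and lower (left, blue) in the double knockout; dashed lines mark the shares over all genes with a symbol, 7.26% higher and 6.64% lower. The longest bars to the right are those of retinoic acid clearance (2 of 3 genes) and of Hox paralogues 1 to 5 (9 of 15), the longest to the left that of male germ cell and piRNA genes (7 of 22).

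Among the largest called falls on all 4 arrays, after Dnmt3l, were Jaml, a junction adhesion protein (-3.20 ± 0.20, adjusted p = 0.000350), Ucma, a cartilage matrix protein (-2.98 ± 0.45, adjusted p = 0.00747), and Ccl17, a chemokine (-2.91 ± 0.19, adjusted p = 0.000401). Dbx2, a homeobox gene, stood at 1.08 and 1.40 in wild type, at -1.73 and -1.60 in the double knockout and -4.00 and -3.23 in the Cyp26b1 knockout, and was 1.94 ± 0.24 higher in the double than in the Cyp26b1 knockout (adjusted p = 0.00118). Dusp26, a phosphatase, showed the same order, with 1.70 and 1.79, -0.91 and -1.38, and -2.16 and -2.39 (1.13 higher than in the Cyp26b1 knockout, adjusted p = 0.00202). The remaining falls of the 12 largest were those of Celf3, Hsd17b1, 4930486L24Rik, Ckmt1, Dync1i1 and Tnnc2, from -2.90 to -2.57. The call of Ucma ended without either wild-type array. Among genes not well above background in the double knockout, Clca1 was at least 25.0-fold lower and Rph3a, of vesicle transport, at least 10.9-fold lower. The calls of Clca1 and Rph3a were both lost with normexp on all spots. With 2 arrays against 2, an exact permutation test of a single gene cannot go below p = 0.333, so all calls rest on the spread that limma shares across features.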

How the data were processed

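Feature Extraction 9.5 from Agilent read the spots, per the submitters' processing notes (9.5.3.1, per the file headers). The deposited values are spot intensities, already background-subtracted and not scaled between arrays. The authors also deposited a value table of linear ratios, 1 column per genotype, whose log2 differences followed those used here (r = 0.999993 across 24500 probes) with a shift of -0.20 for double knockout against wild type; its column medians were 1.00 for wild type, 0.959 for the double knockout and 1.12 for the Cyp26b1 knockout, and its centring and scaling between arrays stay unknown. No source used here names the authors' test.

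Here log2 processed signals were scaled to the 75th percentile of each array (997 to 1536 before scaling), without control and outlier spots. The share of spots well above background was 62.6% to 69.2%. Of 41174 probes, 23355 matched 1 gene symbol by RefSeq accession, 0 several and 17794 none, and 25 had no usable spot on some array; a gene is its brightest probe by mean level. Tests covered features well above background on both arrays of wild type or of the double knockout. Differences were tested two-sided with limma 3.58.1 in R 4.3.3 (lmFit, eBayes with trend) on the 6 arrays together; residual degrees of freedom were 3 and prior ones 4.41. The fit was checked on simulated data. Where a probe was above background on no array of a genotype, the fold is a bound against the lowest signal well above background, or the probe's own if higher. Such a bound holds for this background treatment only.

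Named genes were both targeted genes, the 12 largest rises and falls whose arrays do not overlap, the 6 largest bounds in each direction (some described as examples), genes of the retinoid pathway lists and up to 6 called members of each other list by adjusted p (2 where none was called); others were named after their values were seen (most Hox paralogues 1 to 5, Prokr2, Blvrb, Hbb-y, Ppbp, Dmc1, Msh5, Ugt8a, Sycp3, Nanos2, Tdrd1, Morc1, Ddx4, Amh, Sox9, Cyp17a1, Cdh5, Pax2 and Tgm1). Some genes that enter the counts are not reported here by name. The members and gene lists were chosen with earlier results of these data known. Alternatives were normexp background correction on all spots or without marked spots, 4 scalings, 2 filters, 4 arrays only, no trend, a 2-fold minimum, a replicate block, the mean of probes, and leaving out each array. The mean spot signal named for the background alternative was replaced by the median spot signal.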

Additional observations from a re-analysis of the deposited data

How the results depend on the processing

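The counts of called features depended on the processing. Reported were 1218 higher and 1518 lower features. Normexp background correction on all spots gave 321 and 223, the authors' scaling gave 680 and 4547, no filter on dim probes 757 and 842, and a 2-fold minimum 339 and 632, while median scaling gave 2518 higher. Leaving out 1 array gave 293 to 1395 higher and 285 to 1697 lower, the lone array being assumed to vary like the other groups. A replicate block gave 1422 and 1821. Replicate numbers come from file names only. The deviations of same-numbered wild-type and double knockout arrays had r = 0.194. Whether such arrays share more than the number was not tested. Of 148 named calls, 80 were lost and 6 reversed with normexp on all spots, 63 and 70 were lost without wild-type replicates 1 and 2, and 1 under the replicate block. The cause was not tested.

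Signs turned as follows. With normexp on all spots Rdh10 was -0.046, Bco1 -0.49, Rarg -0.16, Rxrg -0.14, Gbx2 -0.057, Hoxa2 -0.0499, Erg -0.16, Hoxc5 -0.47, Hoxb1 -0.34 and Hoxb5 -0.096. With the authors' scaling Cyp26b1 was -0.12, Rdh14 -0.043, Adh5 -0.12, Bco1 -0.089, Dhrs4 -0.094, Hoxc5 -0.14 and Blvrb -0.061. With median scaling Adh4 was 0.029, Rara 0.012 and Hoxd1 0.071. With quantile normalization Rara was 0.065 and Hoxd1 0.077, and with normexp without marked spots Rara was 0.015. With the mean of probes Stard4 was 0.047 and Hoxa3 0.63. Without 1 array each, Cyp26b1 ranged from -0.023 to 0.18, Adh4 from -0.36 to 0.15, Bco1 from -0.17 to 0.39, Dmc1 from -0.77 to 0.19, Hoxc5 from -0.053 to 0.17 and Hoxd1 from -0.13 to 0.0089. Cyp26a1 (1.81 to 5.56), Rarb (1.44 to 2.04), Stra8 (2.32 to 3.65) and Dnmt3l (-5.78 to -4.72) kept their calls in all alternatives run. Dim probes had larger errors, with a median SE of 0.23 for the dimmest features and 0.10 for the brightest.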

Other observations

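Some genes stood on opposite sides of wild type in the 2 knockouts; they were singled out after their values were seen. Tgm1, a transglutaminase of epithelia, stood at -4.83 and -5.26 in wild type, at -7.09 and -7.17, not well above background, in the double knockout and at -2.52 and -2.57 in the Cyp26b1 knockout. H2-Ab1, a class II antigen-presenting gene, stood at -1.85 and -2.70, -3.15 and -3.51, and -0.26 and -0.41 in those genotypes, lower in the double than in the Cyp26b1 knockout by a difference of -2.99 ± 0.27 (limma adjusted p = 0.000487). Pbx3, the TALE partner of Hox proteins, stood at 1.23 and 1.09, 0.76 and 0.58, and 1.54 and 1.61 (-0.90 ± 0.10 between the knockouts, adjusted p = 0.000791). Dcn, a proteoglycan of connective tissue, went the other way, with 5.34 and 5.31, 5.92 and 5.96, and 4.75 and 4.97 (1.08 ± 0.10, adjusted p = 0.000494). Their calls against wild type were less firm: those of H2-Ab1, Pbx3, Dcn and Tgm1 were lost in 13, 6, 4 and 2 of the alternatives. The Cyp26b1 knockout arrays lay on another slide and scan day, and their part in these differences cannot be told apart from that of Stra8.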
